A study of Mus musculus with 6 samples.

Results

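The genes described here are 9 regulators and products of cartilage cells: the transcription factor genes Sox9, Sox5, Sox6 and Sox8, the matrix genes Acan, Comp and Matn3, and the growth plate signalling genes Ihh and Pth1r. They are 9 of 21853 protein-coding genes. The list is one of names and uses no measured value, although earlier results of these data were known when it was made. A called peak was assigned to a gene when it overlapped the window of 1 kb either side of a start site (TSS) of any of its protein-coding transcripts, or when it lay in the gene body or the 50 kb upstream of it, which together form the locus. Peaks of the libraries that overlapped by at least 1 bp were merged, and 46 of 63840 merged regions lay in the 9 loci.

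The data are ATAC-seq peak lists, in which a transposase cuts accessible DNA and the reads pile up where chromatin is open. Skeletal stem and progenitor cells (SSPCs) were cultured from the marrow of tibiae and femora of untreated C57BL/6 mice and harvested at passage one. There were 3 libraries from young mice (young 1 to 3) and 3 from middle-aged mice (middle-aged 1 to 3), and no allele or agent set the groups apart. The labels give the age only by these words and do not say whether a library came from 1 animal, so the spread between libraries may be technical.

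Cartilage forms when mesenchymal progenitors condense and switch on Sox9, the transcription factor that starts the chondrocyte programme and drives the genes of its matrix together with Sox5 and Sox6. In the growth plate, Ihh is secreted by chondrocytes that are about to enlarge, and it is kept in balance by parathyroid hormone-related peptide, which acts through the receptor encoded by Pth1r. Cultured marrow stromal cells can be steered into bone, fat or cartilage, and open chromatin at the start of a gene often, though not always, accompanies its transcription.

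The lists held 27628 to 43941 peaks in young and 46364 to 48344 in middle-aged libraries, and the background of the libraries, recovered from the peak statistics as a stand-in for depth, was 1.65 to 3.75 reads per base. Young 3 was the shallowest and had the shortest list. Young 1 had the highest background, 3.75 reads per base, but its 35953 peaks were fewer than those of young 2 and of every middle-aged library. List length thus did not follow this measure of depth throughout, and the part of depth in the gap between the groups was not tested. The weakest called summits had 8 to 13 reads, so a gene without a peak was not called at this depth, which does not make it closed. As a check of the cell type, 2 to 9 of 14 stromal markers had a TSS peak per library, against 9 to 10 of 10 macrophage and blood markers and 2 to 5 of 7 endothelial markers. Of the stromal markers, Kitl and Twist1 were called in all 6 libraries and Lepr, Prrx1, Ly6a and Thy1 in none. Of the macrophage and blood markers 9 were called in all 6, among them the leukocyte gene Ptprc, and Csf1r in young 2 and 3 alone. In young 3 only 2 of the stromal markers were called. The part of other cell types in the results for the cartilage genes was not tested, and fewer cells with an open site cannot be told apart from a less open site in each cell.

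Sox6 alone of the 9 genes had a TSS peak in every library, at the edge of the window of 1 kb. Start sites were called for 2, 3 and 2 of the 9 genes in the young libraries, in order of their number, and for 5, 5 and 4 in the middle-aged ones. All 6 libraries thus called 1 of 9, against 48.4% of all protein-coding genes. At least 1 library had a peak for 6 of 9 genes, against 61.5% of all genes. Sox5, Acan and Ihh had no TSS peak in any library. The mean number of genes was 2.33 ± 0.577 (SD, 3 libraries) in young and 4.67 ± 0.577 (SD, 3 libraries) in middle-aged libraries, and every middle-aged library had more than every young one. Over all protein-coding genes the groups were also apart, with 10824 to 12417 called genes in young and 12551 to 12675 in middle-aged libraries, or 53.6% and 57.6% on average. With lists cut to the same length, 27628 peaks each, the numbers were 1, 2 and 2 against 2, 3 and 2, so the gap of 2.33 genes shrank to 0.667 and the groups overlapped.

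**Figure D1:**
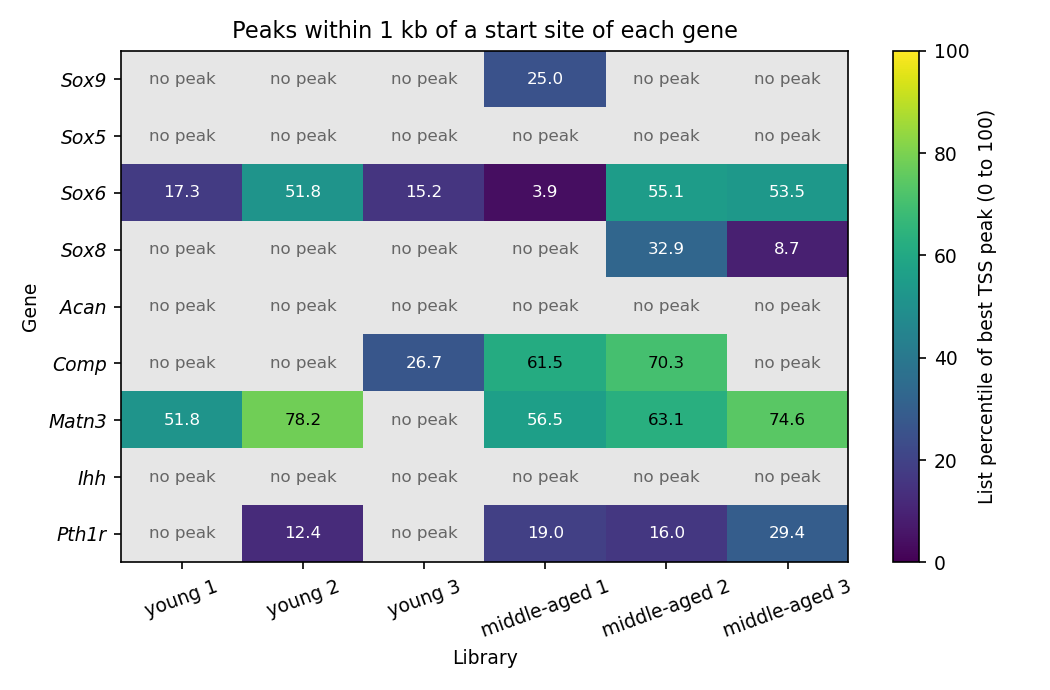
List percentile of the best peak within 1 kb of a start site, for the 9 genes (rows) in the 6 libraries (columns); the colour and the number give the percentile from 0 to 100 and grey cells have no called peak. Sox6 alone was called in all 6 libraries, and Matn3 reached the highest percentile, 78.2 in young 2.

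The strength of a peak is given as its list percentile, the rank by the −log10 q of the peak within its own library's list, from 0 for the weakest to 100, and as its fold enrichment, the pileup at the summit over the local background, each with 1 added. Over the 22403 regions called in all 6 libraries, the list percentile was higher in middle-aged libraries by a median of 6.74 points, so a gap between the groups is to be read beside this general shift. Of the genes, Sox8 and Pth1r were called in at least 2 more middle-aged than young libraries (2 of 9, against 2.78% of all genes). None was called in 2 more young than middle-aged libraries, which 0.11% of all genes were.

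Sox9, the master regulator of chondrocytes, was called at its start site in middle-aged 1 alone. The peak had a list percentile of 25.0 and a fold enrichment of 4.50, with its summit 79 bp upstream of the start on chromosome 11 (mm10) and 19 reads over it. The other five libraries had no peak in the gene or in the 50 kb upstream. The locus held 0, 0 and 0 peaks in the young and 1, 0 and 0 in the middle-aged libraries, a difference that the test cannot separate from the spread (two-sided exact permutation p = 1).

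Sox9 lies in a gene desert, so the stretches as far as the neighbouring protein-coding genes were examined as well; this was chosen after the values of Sox9 were seen. Upstream, 1705 kb separate Sox9 from Kcnj2, which encodes an inward rectifier potassium channel. That stretch held 9, 6 and 5 peaks in young and 13, 12 and 10 in middle-aged libraries. The groups did not overlap, which gives the smallest p of this design (two-sided exact permutation p = 0.1). Among the 17996 gene loci with a peak, 9.45% had all middle-aged counts above all young ones and 0.0778% the reverse. Those loci were mostly far shorter than this stretch, with a median of 67.4 kb over all genes. The middle-aged lists were also longer, 1.32 times on average, and the group means of the stretch were 6.67 ± 2.08 (SD, 3 libraries) and 11.7 ± 1.53 (SD, 3 libraries).

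All the strong upstream regions stood at the far end. The 4 regions called in all 6 libraries lay 1491 to 1689 kb from Sox9, near Kcnj2, and the strongest, 1685 kb away, had list percentiles of 82.3 to 89.0. Apart from the peak at the Sox9 start itself, the nearest upstream region was 302 kb away and was called in 1 middle-aged library. Downstream, in the 457 kb before Slc39a11, a zinc transporter gene, there were 6, 10 and 5 peaks in young and 12, 11 and 10 in middle-aged libraries (two-sided exact permutation p = 0.2). The nearest downstream region called in all 6 libraries was 281 kb from Sox9, with list percentiles of 40.2 to 86.8. Whether any of these regions acts on Sox9 was not measured.

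**Figure D2:**
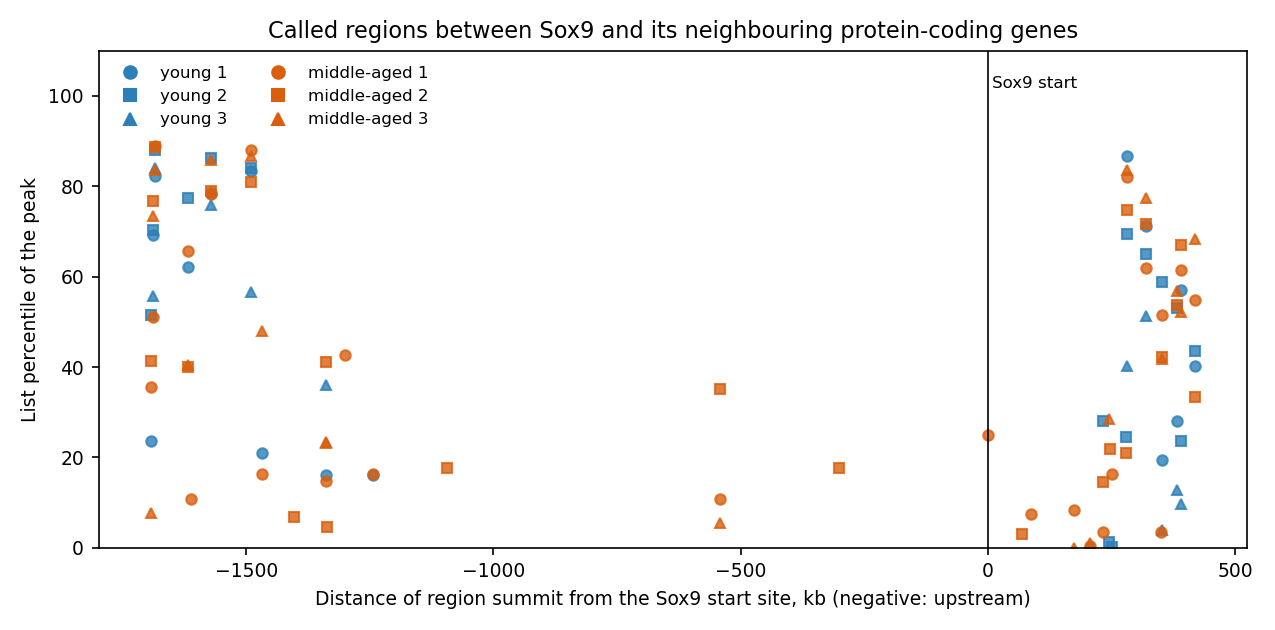
List percentile of every called region between Sox9 and the neighbouring protein-coding genes, by the distance of its summit from the Sox9 start in kb; a point is 1 library, coloured by age group with the shape giving the library number. The points above percentile 80 lie 281 kb or more from the start, where 1 point at percentile 25.0 is the only call.

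Sox5 and Sox6 encode partner factors that bind with Sox9 at cartilage enhancers. Sox5 had no TSS peak at any of its protein-coding starts, but its long locus, 1004 kb on chromosome 6, held 14 regions. The libraries had 7, 8 and 5 peaks there in young and 8, 11 and 10 in middle-aged mice. The counts met at 8, and the difference of 3.00 peaks did not exceed what the spread allows (two-sided exact permutation p = 0.2). Per 100 kb the locus had 0.814 peaks on average, against a median of 2.72 over all genes.

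Of the Sox5 regions, 4 were called in all 6 libraries and 6 in no young library. The strongest was an intergenic region 36.2 kb beyond the outer end of the gene body, chr6:144818029-144818436. Its list percentiles were 83.1, 91.5 and 84.1 in young and 88.2, 89.7 and 87.3 in middle-aged libraries, so all 6 libraries placed it in the top part of their lists. Its fold enrichment averaged 11.4 ± 2.36 (SD, 3 libraries) in young and 13.2 ± 0.923 (SD, 3 libraries) in middle-aged libraries. A second region, in an intron at chr6:144693549-144693869, had percentiles of 73.6, 78.2 and 79.2 in young and 70.8, 76.5 and 74.9 in middle-aged libraries. The weakest of the 4, in an intron at chr6:143868176-143868517, had percentiles of 26.1, 16.5 and 22.1 in young and 53.4, 38.8 and 52.2 in middle-aged libraries. The groups did not overlap there, where the general shift of the list percentile was 6.74 points, and the share of all regions so separated was not counted. The rank of the region among the regions called in all 6 libraries differed by 4.80 ± 5.85 (SE) points (limma adjusted p = 0.870).

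These Sox5 regions carried the strongest open chromatin at a gene whose start sites were not called, and the 200 bases around their summits are therefore shown as the mm10 reference gives them, plus strand. Capitals mark matches to 7 short motifs on either strand, and overlapping matches run together: TGANTCA (AP-1), ACAAT (SOX), TGTGGT (RUNX), GGAATG (TEAD), CCCNNGGG (EBF), GGGCGG (SP) and CCAAT for the CCAAT box.
Sox5 upstream, chr6:144818127-144818326: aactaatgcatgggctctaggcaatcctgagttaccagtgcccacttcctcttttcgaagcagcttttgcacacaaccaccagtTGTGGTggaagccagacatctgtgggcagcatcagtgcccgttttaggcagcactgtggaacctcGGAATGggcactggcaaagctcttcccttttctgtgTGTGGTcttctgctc
Sox5 intron, chr6:144693587-144693786: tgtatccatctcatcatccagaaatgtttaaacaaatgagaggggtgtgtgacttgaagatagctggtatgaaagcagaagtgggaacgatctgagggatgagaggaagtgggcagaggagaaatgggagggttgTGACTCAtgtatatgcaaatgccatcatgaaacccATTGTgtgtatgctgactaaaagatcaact
The upstream window held 2 RUNX matches and 1 TEAD match, and the intron window held 1 AP-1 and 1 SOX match. In windows of this length around all 22403 regions called in 6 libraries, a RUNX match was present in 16.9%, a TEAD match in 8.91%, an AP-1 match in 13.5% and a SOX match in 16.6%. A match describes the letters only.

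At the outermost end of the Sox5 gene body, where annotated transcripts that are not protein-coding begin, 2 weak regions flanked the end. Each was called in 1 middle-aged library, at percentiles of 3.46 in middle-aged 1 and 10.4 in middle-aged 2. Another intronic region, chr6:144670418-144671167, had list percentiles of 82.8, 66.5 and 55.5 in young and 56.5, 67.6 and 61.2 in middle-aged libraries. Only young 1 stood above the rest there, with 57 reads at the summit against 21 to 34 in the other libraries. Young 1 was also the deepest library, and over the background of each library its height was 15.2 against 9.84 to 13.3.

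Sox6 was the only gene of the 9 with a TSS peak in every library, and that peak sat at the edge of the window. Its list percentiles were 17.3, 51.8 and 15.2 in young and 3.85, 55.1 and 53.5 in middle-aged libraries. Both groups held weak and middling values, and the means of 28.1 ± 20.6 (SD, 3 libraries) and 37.5 ± 29.1 (SD, 3 libraries) did not differ beyond the spread (two-sided exact permutation p = 0.8). The summits lay 816 to 1035 bp upstream of the nearest start, and no Sox6 peak overlapped a window of 500 bp. The strongest region of the locus, chr7:116040180-116040560, lay in the TSS window of the neighbouring gene 1110004F10Rik. It had percentiles of 70.4, 84.4 and 41.7 in young and 82.2, 82.8 and 82.1 in middle-aged libraries, lowest in the shallow young 3. A window of 2 kb counted this region for Sox6 as well, in 6 of 6 libraries.

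The Sox6 locus had 3, 6 and 4 peaks in young and 8, 6 and 7 in middle-aged libraries (two-sided exact permutation p = 0.2). With equally long lists the difference of 2.67 peaks became -0.333, so its direction turned. Of its 12 regions, 2 were called in all 6 libraries and 6 in no young library, and those 6 were intronic and called in 1 or 2 middle-aged libraries.

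Sox8, a close relative of Sox9 that can act beside it, was called at its start in middle-aged 2 and 3 only. The list percentiles were 32.9 and 8.68 and the fold enrichments 5.05 and 4.05. None of the 3 young libraries nor middle-aged 1 had a peak there, and neither peak was left when the lists were cut to the same length. The 250 bases before the RefSeq start (GRCm38.p6, the assembly of mm10) are shown because this was a promoter called in middle-aged libraries alone.
Sox8 promoter, chr17:25570687-25570936, minus strand: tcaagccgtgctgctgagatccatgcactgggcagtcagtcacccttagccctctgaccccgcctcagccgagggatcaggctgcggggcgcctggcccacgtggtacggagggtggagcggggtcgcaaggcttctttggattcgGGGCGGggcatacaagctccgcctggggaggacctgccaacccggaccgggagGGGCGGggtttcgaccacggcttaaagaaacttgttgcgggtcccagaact
It held 2 SP matches and none of the other motifs, and 32.7% of all 32851 RefSeq promoters held an SP match in these 250 bases. The strongest region in the Sox8 locus, chr17:25578888-25579573, lay at the start of the adjacent gene Lmf1. Its percentiles were 82.5 to 91.7 in young and 91.6 to 94.1 in middle-aged libraries.

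The matrix genes gave 3 different pictures. Acan encodes aggrecan, the large proteoglycan that holds water in cartilage. It had no TSS peak, and its locus held 0, 1 and 0 peaks in young and 0, 0 and 1 in middle-aged libraries (two-sided exact permutation p = 1). Both peaks formed 1 region, in an intron at chr7:79080852-79081155, with list percentiles of 23.2 in young 2 and 40.5 in middle-aged 3. At 0.299 peaks per 100 kb, Acan had the sparsest locus of the 9, at percentile 19.7 of all protein-coding genes, with Sox9 next at 0.300.

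Matn3 encodes matrilin-3, an adaptor protein of the growth plate matrix, and had the promoter peaks of highest rank in the set. Its TSS peak had list percentiles of 51.8 and 78.2 in young 1 and 2, none in young 3, and 56.5, 63.1 and 74.6 in the middle-aged libraries. The young and middle-aged values overlapped wherever a peak was called. The summits lay 40 to 85 bp upstream of the start, with fold enrichments of 6.11 to 11.2 and 25 to 42 reads. The peak stayed in the same 5 libraries with a window of 500 bp, with a −log10 q of at least 5 and with equally long lists. The missing call in young 3 went with the shallowest library, where 5491 regions were called in every library but this one, against 164 to 993 for the others.

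The promoter of Matn3, called in 5 libraries, is set beside that of Acan, called in none, as RefSeq gives the 250 bases before each start.
Matn3 promoter, chr12:8947679-8947928, plus strand: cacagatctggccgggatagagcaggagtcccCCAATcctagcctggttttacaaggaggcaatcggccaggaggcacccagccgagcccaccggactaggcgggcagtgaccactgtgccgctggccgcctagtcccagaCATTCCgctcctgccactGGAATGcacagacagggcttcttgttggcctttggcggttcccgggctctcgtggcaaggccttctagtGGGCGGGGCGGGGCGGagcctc
Acan promoter, chr7:79052976-79053225, plus strand: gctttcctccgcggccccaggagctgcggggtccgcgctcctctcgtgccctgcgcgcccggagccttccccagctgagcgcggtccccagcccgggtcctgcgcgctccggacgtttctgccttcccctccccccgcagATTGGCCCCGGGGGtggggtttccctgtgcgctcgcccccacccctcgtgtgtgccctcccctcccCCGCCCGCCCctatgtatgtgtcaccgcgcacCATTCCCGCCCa
Matn3 held 2 TEAD, 3 SP and 1 CCAAT match, and Acan held 1 TEAD, 2 EBF, 3 SP and 1 CCAAT match. Over all RefSeq promoters, 12.6% held a TEAD match, 11.8% an EBF match, 32.7% an SP match and 33.8% a CCAAT match. Both promoters thus held TEAD, SP and CCAAT matches.

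The Matn3 locus held 4, 6 and 4 peaks in young and 5, 5 and 6 in middle-aged libraries (two-sided exact permutation p = 0.6). A pair of its strong regions belonged to the neighbour Laptm4a, a lysosomal membrane protein gene. The one at the Laptm4a start, chr12:8921396-8922429, was the strongest in any of the 9 loci, with percentiles of 93.0 to 97.1 in young and 96.1 to 97.6 in middle-aged libraries. The other, in a Laptm4a intron at chr12:8927576-8928045, had percentiles of 78.2 to 86.5 and 77.6 to 88.9. Inside Matn3 itself, an intronic region at chr12:8969862-8970239 was called in all 6 libraries, at 56.1, 74.2 and 9.49 in young and 59.3, 55.3 and 62.7 in middle-aged libraries. The low value was again that of young 3.
Matn3 intron, chr12:8969948-8970147: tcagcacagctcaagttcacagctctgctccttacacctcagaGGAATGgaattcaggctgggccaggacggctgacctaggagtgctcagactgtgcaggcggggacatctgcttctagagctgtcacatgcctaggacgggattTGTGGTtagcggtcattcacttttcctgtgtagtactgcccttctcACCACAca
This window is shown as the only region in a matrix gene body, more than 10 kb from a start, that all libraries called, and it held 2 RUNX matches and 1 TEAD match.

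Comp encodes cartilage oligomeric matrix protein, which links collagen fibrils and is also made by tendon and fibroblasts. A region in its first kilobases, chr8:70374509-70374936, was called in all 6 libraries, with list percentiles of 47.2, 59.0 and 26.7 in young and 61.5, 70.3 and 60.1 in middle-aged libraries. Every middle-aged value exceeded every young one, where the general shift of the list percentile was 6.74 points, and the share of all regions so separated was not counted. The rank of the region among shared regions differed by 7.32 ± 8.10 (SE) points (limma adjusted p = 0.851). The region lay near the edge of the TSS window. Its summit lay 1166 bp after the start, so the window of 1 kb counted it only in young 3 and in middle-aged 1 and 2. A window of 2 kb counted it in 6 of 6. The number of libraries with a Comp TSS peak therefore followed the edge of the window. The Comp locus held 2, 3 and 2 peaks in young and 3, 3 and 3 in middle-aged libraries (two-sided exact permutation p = 0.4). Its strongest region, chr8:70353005-70353663, stood at the start of Upf1, a gene of RNA decay, and had percentiles of 75.4 to 83.8 in young and 88.1 to 90.5 in middle-aged libraries.

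Of the signalling genes, Ihh had no TSS peak. Its locus held 1, 2 and 0 peaks in young and 2, 2 and 2 in middle-aged libraries (two-sided exact permutation p = 0.4). Both regions were distal. One was intergenic, 13 kb upstream at chr1:74964502-74964821, with percentiles of 27.4 and 26.2 in young 1 and 2 and 42.6, 11.8 and 26.2 in the middle-aged libraries. The other lay 45.8 kb upstream in an intron of Nhej1, a DNA repair gene whose introns are known to hold Ihh enhancers, and was called at 26.2 in young 2 and at 42.6, 17.7 and 20.6 in the middle-aged libraries. The sequences of that intronic window and of the uncalled Ihh promoter are shown because the called regions of this locus all lay at a distance.
Nhej1 intron, chr1:74997383-74997582: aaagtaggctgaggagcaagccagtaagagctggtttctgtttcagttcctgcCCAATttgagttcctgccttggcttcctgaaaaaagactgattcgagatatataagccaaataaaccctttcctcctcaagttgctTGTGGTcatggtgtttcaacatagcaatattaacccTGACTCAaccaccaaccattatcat
Ihh promoter, chr1:74951673-74951922, minus strand: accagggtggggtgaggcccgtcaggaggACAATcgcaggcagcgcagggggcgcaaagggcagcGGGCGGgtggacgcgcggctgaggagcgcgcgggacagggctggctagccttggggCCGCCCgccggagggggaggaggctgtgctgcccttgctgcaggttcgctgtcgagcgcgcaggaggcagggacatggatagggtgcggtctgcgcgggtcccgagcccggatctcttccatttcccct
The intronic window held 1 AP-1, 1 RUNX and 1 CCAAT match, and a CCAAT match was present in 27.1% of windows around all regions called in 6 libraries. The promoter held 1 SOX and 2 SP matches, and 27.7% of RefSeq promoters held a SOX match.

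Pth1r was called at its start in young 2 and in all 3 middle-aged libraries. The list percentile was 12.4 in young 2 and 19.0, 16.0 and 29.4 in middle-aged 1, 2 and 3, and the fold enrichments were 3.99 to 4.66. These were weak peaks in every library that had them, and they were gone from all libraries with equally long lists. The same peak lay in the TSS window of Myl3, a myosin light chain gene that starts next to it, so the call cannot be given to Pth1r alone. The locus held 3, 4 and 3 peaks in young and 5, 3 and 5 in middle-aged libraries (two-sided exact permutation p = 0.4).

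The strong site of Pth1r lay 9.93 kb inside the gene. The intronic region chr9:110732556-110733074 had list percentiles of 83.2, 85.8 and 87.0 in young and 90.1, 86.7 and 91.5 in middle-aged libraries. Its fold enrichment averaged 10.2 ± 1.49 (SD, 3 libraries) in young and 12.7 ± 1.18 (SD, 3 libraries) in middle-aged libraries. It is shown because, outside the start sites of other genes, only it and the upstream Sox5 region had a mean percentile above 85.
Pth1r intron, chr9:110732691-110732890: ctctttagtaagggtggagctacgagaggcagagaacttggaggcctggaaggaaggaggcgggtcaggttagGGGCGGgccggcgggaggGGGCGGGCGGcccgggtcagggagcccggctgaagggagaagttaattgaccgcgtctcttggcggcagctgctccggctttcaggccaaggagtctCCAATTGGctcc
It held 3 SP and 2 CCAAT matches, and 36.1% of windows around all regions called in 6 libraries held an SP match. A further region 34.4 kb upstream, chr9:110781230-110782131, had percentiles of 74.9 to 79.2 in young and 80.2 to 87.2 in middle-aged libraries.

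Of the 3 genes with no TSS peak, Acan and Ihh had promoters that were not poor in CpG dinucleotides, and the Sox5 promoter used was poor in them. CpG dinucleotides are dense in promoters that are open in many tissues. Sox5 and Acan had further protein-coding starts whose promoters were not among those used. RefSeq promoters, 250 bases before to 50 after the start, were matched to 16499 genes and to 7 of the 9, with no entry for Sox9 and Comp. For a gene with several promoters the highest ratio was taken, which need not be that of a called start. The ratio of observed to expected CpG was 0.795 for Acan and 0.774 for Ihh, close to 0.751 for Pth1r, 0.672 for Sox6 and 0.647 for Sox8. It was lower for Matn3, at 0.511, and lowest for Sox5, at 0.256, in a bin where 67.5% of genes had no peak. For Sox6 the start nearest its called peak had a lower ratio, 0.443, and 0.672 was that of another start. Of the 3399 genes between 0.6 and 0.8, 70.6% had a TSS peak in all 6 libraries and 12.7% in none. Acan and Ihh were thus in the smaller class of their bin, and Matn3, called in 5 libraries, lay in a bin where 35.9% of genes had no peak.

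**Figure D3:**
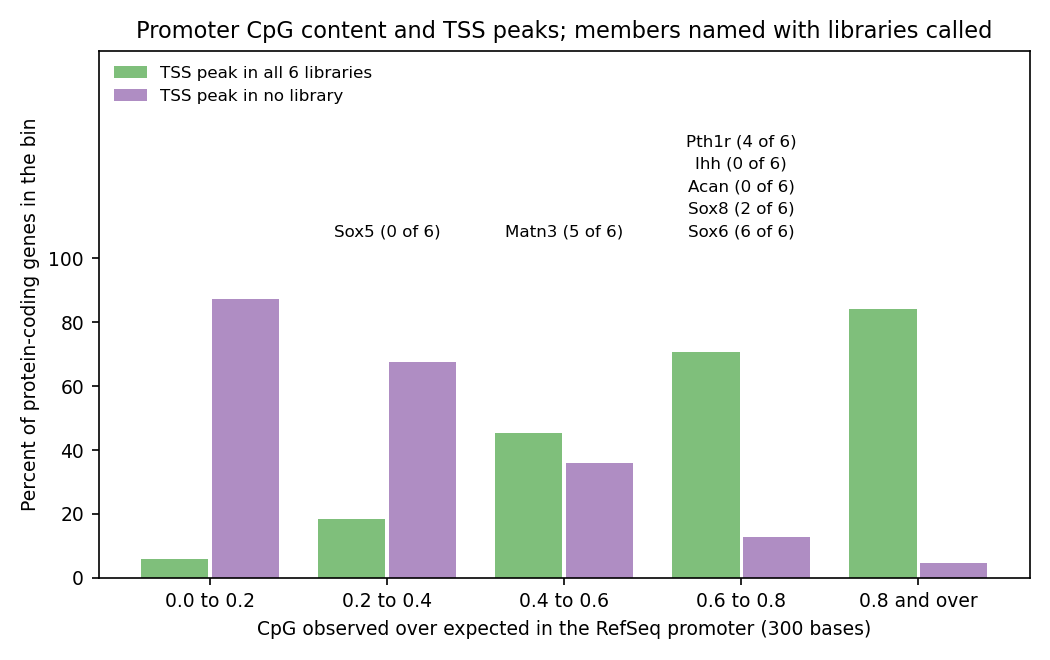
Percent of genes called at a start in all 6 libraries (green bars) and in no library (purple bars), in bins of the highest observed over expected CpG ratio among the RefSeq promoters of a gene. The 7 matched genes are named above their bin with the number of libraries called. The bin of Sox6 is not that of the start nearest its called peak. The share called in all libraries rises from 5.87% in the lowest bin to 84.3% in the highest, and Acan and Ihh stand without a peak in the bin from 0.6 to 0.8.

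Over the 9 loci together there were 21, 31 and 19 peaks in young and 33, 32 and 37 in middle-aged libraries. The means were 23.7 ± 6.43 (SD, 3 libraries) and 34 ± 2.65 (SD, 3 libraries), a ratio of 1.44 beside 1.32 for the whole lists. With equally long lists the ratio was 1.06. Per 1000 peaks of the list, they were 0.659 ± 0.0656 (SD, 3 libraries) and 0.721 ± 0.0411 (SD, 3 libraries), a ratio of 1.09. For no single gene did all middle-aged counts exceed all young counts (0 of 9), which held for 9.45% of the 17996 genes with a peak in the locus. The opposite order was not seen either (0 of 9, against 0.0778%). With 3 libraries a group, the smallest p that the test of a single locus can give is 0.1.

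**Figure D4:**
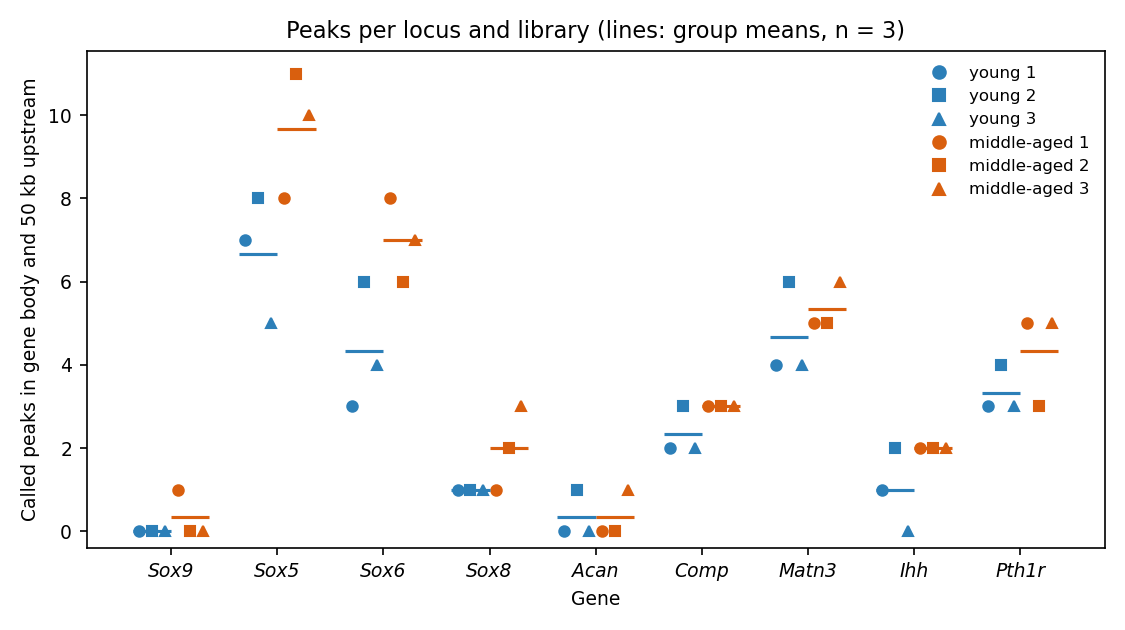
Number of called peaks in the gene body and 50 kb upstream for each of the 9 genes; a point is 1 library, coloured by age group with the shape giving the library number, and lines are group means of 3 libraries. The counts of the age groups touch or overlap for every gene, with Sox5 (5 to 11) and Sox6 (3 to 8) the highest.

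The 46 regions were mostly distal to the starts of the 9 genes. The summit lay more than 10 kb from the nearest start of the gene for 33 of them, and 25 were in introns of the 9 genes. Sox5 and Sox6, with loci of 1004 and 618 kb, held 14 and 12 of the 46, and the median locus of all genes was 67.4 kb. The share of distal regions was not counted over all genes. All 6 libraries called 14 of the 46 (30.4%), against 35.1% of all regions. The mean list percentile of these 14 had a median of 78.2 and ran from 32.8 to 96.2, and the median over all regions called in 6 libraries was 69.9. Of the 14, 4 stood in the TSS window of another gene, and the other 10 had a median of 70.3.

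No young library called 15 of the 46 regions (32.6%, against 25.4% of all regions), and each of the 46 was called in at least 1 middle-aged library, as were all but 6.43% of all regions. None of the 15 was called in all 3 middle-aged libraries, and 10 of them were called in 1 library alone. They were weak, with mean percentiles from 0.784 to 42.4 and a median of 17.3. Accordingly, 0 of the 46 regions were specific to middle-aged libraries by being called in 3 of them and in no young one, against 2.21% of all regions. None was specific to young libraries, against 0.036%. A further 4 of the 46 regions were called in every library but young 3, beside 5491 of the 63840 regions over all.

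**Figure D5:**
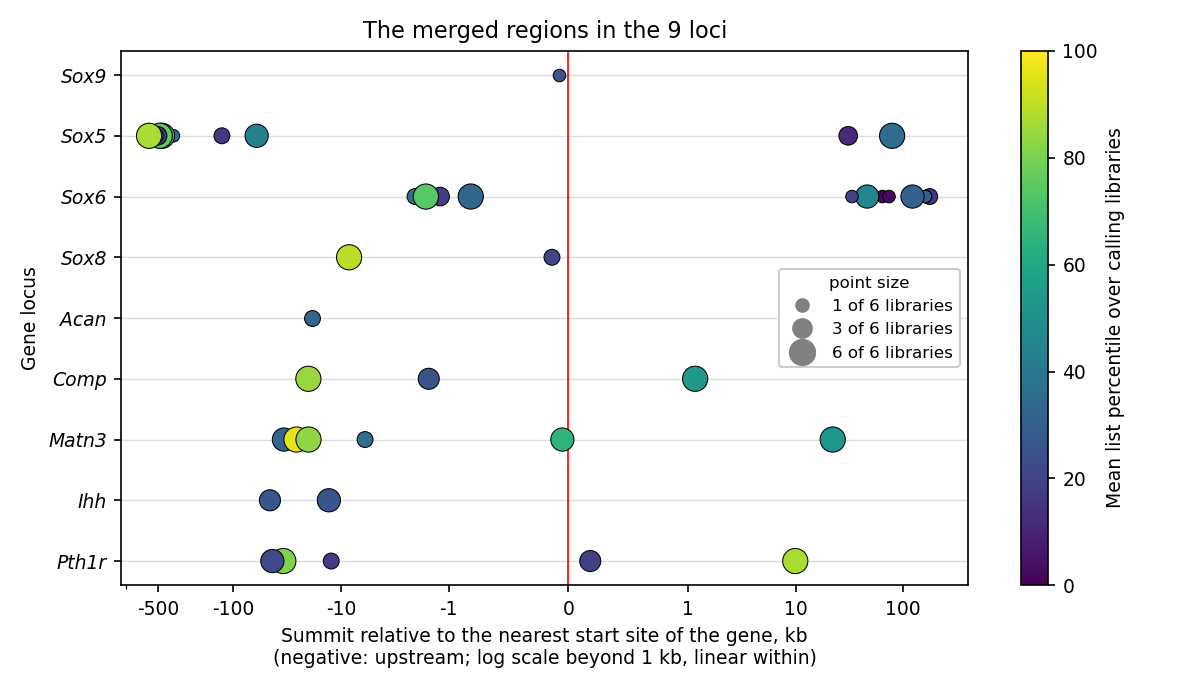
The 46 merged regions of the 9 loci by the distance of the summit from the nearest protein-coding start of the gene, in kb (logarithmic beyond 1 kb); point size gives the number of calling libraries and colour the mean list percentile. Large bright points lie upstream or in introns rather than at the starts of the 9 genes, with the upstream Sox5 region (87.3) and the Pth1r intron (87.4) among them. The brightest points, at 96.2 and 89.6, lie at the starts of the neighbouring genes Laptm4a and Lmf1.

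The regions called in all 6 libraries were then compared between the ages by their rank, using limma on the percentile of each region among the 22403 such regions, which leaves no room for a general shift. With adjustment over all of these, limma called 0 of the 14 regions at an adjusted p of 0.05 and 0 of 22403 (0%). At an unadjusted p below 0.05 there were 1 of the 14 and 1644 of all (7.34%). Of the 14, 9 ranked higher in middle-aged and 5 in young libraries, beside 50.7% of all 22403 that ranked higher in middle-aged libraries. The 4 regions in the TSS window of another gene were all among the 9. The median difference was 1.20 percentile points beside 0.0744 over all.

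The region that moved most was the intronic Sox5 region that stood high in young 1, at chr6:144670418-144671167. Among shared regions it had a mean percentile of 51.8 in young and 26.5 in middle-aged libraries, and the difference of -25.3 ± 10.7 (SE) points had an unadjusted p of 0.0339 and an adjusted p of 0.674 in limma. The other intronic Sox5 region, chr6:144693549-144693869, differed by -16.9 ± 8.27 (SE) points (limma adjusted p = 0.685). In the opposite direction, the region at the Upf1 start near Comp differed by 8.49 ± 4.42 (SE) points (limma adjusted p = 0.686) and that at the Lmf1 start near Sox8 by 5 ± 2.71 (SE) points (limma adjusted p = 0.691). The strong regions of Sox5 upstream and in the Pth1r intron differed by -3.35 ± 3.61 and 1.38 ± 4.01 (SE) points.

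On another scale the comparison gave calls. When the log2 of the recovered summit height over the background of each library was used without centring, limma called 2 of the 14 regions, beside 10.7% of all 22403, and all of those calls were higher in middle-aged libraries. The median of all regions was itself 0.385 higher on this log2 scale. The 2 called regions were those at the starts of Lmf1, with a log2 difference of 0.69 ± 0.22 (SE; limma adjusted p = 0.0338), and of Upf1, with 0.65 ± 0.22 (SE; limma adjusted p = 0.042). Relative to the median of all regions these were 0.31 and 0.26. No call fell on a region at a start or in an intron of the 9 genes.

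Other genes of cartilage gave a background of function. Of 55 further genes in 5 lists, 28, 31 and 25 were called at a start in the young and 29, 30 and 31 in the middle-aged libraries, and 23 in all 6 libraries (41.8%, against 48.4% of all genes). The enzymes and transporters of proteoglycan synthesis, which many cell types use, were nearly all called, with 7 of 8 in every library. This was 87.5%, against means of 53.6% of all protein-coding genes in young and 57.6% in middle-aged libraries. Of 13 other transcription factors of chondrocytes, among them Runx2 and Mef2c, 10 or 11 were called per library, a mean of 82.1% in both groups.

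The genes particular to the cartilage matrix were mostly uncalled. Of 8 cartilage collagen genes, 2, 2 and 1 were called in young and 2, 2 and 2 in middle-aged libraries. Their mean shares were 20.8% and 25%, against 53.6% and 57.6% of all protein-coding genes. The called collagen genes were Col27a1, in all 6, and Col11a1, in young 1 and 2 and all middle-aged libraries. Col2a1, the main collagen of cartilage, and Col10a1, the collagen of enlarged chondrocytes, had no TSS peak in any library. Of 14 other matrix protein genes, 1 to 3 were called per library and 9 in none, with means of 11.9% in young and 19% in middle-aged libraries. The 12 growth plate signalling genes stood apart from the matrix genes. Of these 12, 6 to 9 were called per library, and the means of 58.3% and 63.9% were near the shares of all genes.

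In these lists 3 of the 55 genes were called in at least 2 more middle-aged than young libraries, beside 2.78% of all protein-coding genes. None was called in at least 2 more young libraries, beside 0.11% of all. Matn4, which encodes another matrilin, was called in 0 young and 3 middle-aged libraries, at percentiles of 19.3, 1.87 and 12.1. Fgfr3, a receptor that restrains growth plate chondrocytes, was called at 13.3 in young 2 and at 4.65, 28.1 and 16.8 in the middle-aged libraries. Ptch1, the receptor and target of hedgehog ligands such as Ihh, was called in middle-aged 2 and 3, at 15.8 and 37.3. With equally long lists the difference between the group means over the 55 genes changed from 2 to -1.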

How the data were processed

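ATAC-seq peak lists of 6 SSPC libraries were analysed, 3 young and 3 middle-aged, grouped by sample title. Read files were made by the authors with bcl2fastq, mapped to mm10 with Bowtie2, freed of duplicates with Sambamba and passed to MACS, which called peaks in each library. Whether reads were shifted for the transposase is not given in the sources used here. Such a shift moves peak edges by a few bases. For each peak the authors deposited a score (an integer form of the −log10 q), a fold enrichment (a ratio of summit pileup to local background), and the −log10 p and −log10 q values. Depth is not given as reads, so pileup and background were solved from the deposited fold and −log10 p under a Poisson model, and 100% of the pileups came out within 0.05 reads of a whole number.

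TSSs and gene bodies came from GENCODE vM21, promoters from RefSeq (GRCm38.p6) and 200-base windows from the same assembly. Peaks were merged at an overlap of 1 bp. Single values were compared by an exact permutation test over 20 assignments of libraries (Python 3.11.15, scipy 1.17.1), and ranks of shared regions with limma 3.58.1 in R 4.3.3 (Benjamini-Hochberg, threshold 0.05), tested on simulated data. All 9 genes are named, with the strongest shared region of each locus, and of each other list at most 3 genes with the largest difference in libraries, ties in list order. The 6 stromal markers named and Col27a1, Col10a1 and Mef2c fall outside that rule and were chosen after their values were seen. The genes and lists were chosen with earlier results of these data known. Alternatives were list length, a −log10 q of at least 5, other windows and overlaps, other scales, and leaving out each library. The correlation of same-numbered libraries' deviations from their group means was 0.00105, 0.0156 and -0.0248 over 22403 regions, so no pairing by number was seen in the ranks. Ranking removes a level shared by a whole library, so these values cannot show whether same-numbered libraries were prepared together.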

Additional observations from a re-analysis of the deposited data

How the results depend on the processing

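The gap in the number of the 9 genes with a TSS peak, 2.33 genes, was 1.67 with a −log10 q of at least 5 and 0.667 with equally long lists, and stayed within the spread in the other 8 settings, with 2.17 to 2.67 when 1 library was left out. For the 55 other cartilage genes the gap of 2 became -1 with equally long lists and 4.33 with a −log10 q of at least 5, and ran from 0.5 (without young 3) to 3.5 (without young 2) when 1 library was left out. The Sox6 locus difference of 2.67 peaks turned to -0.333 with equally long lists. The ratio of peaks in the loci, 1.44, moved by less than the spread in all 13 settings (1.31 to 1.7 when 1 library was left out), although it was 1.06 with equally long lists and 1.09 as a share of the list. Regions specific to middle-aged libraries numbered 0 to 3 when 1 library was left out. There were 3 of 46 without young 2 (at the Pth1r start, 1534 bp before the Comp start and in the Nhej1 intron). Without middle-aged 1 there were 3 of 41 (at the Sox8 start and in introns of Sox5 and Sox6). Without middle-aged 2 there were 2 of 44 (in introns of Sox5 and Myl3). Over all regions the same settings gave 3958 of 61566, 2853 of 60732 and 2760 of 60631, in that order. limma called 0 of the member regions in 16 of 17 settings and 2 on the log2 summit height, where the general shift of 0.385 was not removed. Over all regions it called 1 on the normalized log2 fold, 2 on normal scores and 0 whichever library was left out. Setting aside regions at TSSs of other genes was added after the data were seen. For limma it was run on the main ranks alone, where 0 regions were called already, so it could change no call. The 2 calls on the log2 summit height lay at such TSSs.

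With the replicate number as a block, limma called 0 of the 14 regions and 0 of all (1576 at an unadjusted p below 0.05), the blocked ratio of peaks in the loci was 1.47, and no other call changed. Same-numbered libraries did not deviate together in their ranks. The weakest called summit had 8 reads in young 3, 13 in young 1 and 9 or 10 in the other libraries. The young libraries varied most in depth and list length.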
